A study of Mus musculus with 4 samples.

Results

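RNA-seq was used to compare 2 sets of mouse blood cell colonies, both cultured in 4-hydroxytamoxifen (4OHT, the active form of tamoxifen): those from MPP2 cells against those from short-term haematopoietic stem cells (ST-HSCs). The comparison uses 2 of the 4 libraries of the study, 1 from each cell type, and covers 10993 of the 14323 genes in the deposited table. These are the autosomal genes whose mean over the 4 libraries was at least 1 normalized count. Just inside that filter lay E230016M11Rik, with 1.08 normalized counts in the ST-HSC and 1.28 in the MPP2 colonies with 4OHT, and just outside it Prdm9, with 0.575 and 0.642. All cells came from C57BL/6 model mice in which 4OHT induces MLL-ENL. In each culture 100 cells grew for 5 to 7 days in 1% methylcellulose with SCF at 25 ng/ml and IL-6, IL-3 and GM-CSF at 10 ng/ml each. The medium held 4OHT at 0.05 µM, and the libraries of these cultures are labelled with the conditional expression "MLL-ENL". The other 2 libraries, also 1 from each cell type, came from cultures with ethanol alone and are labelled "control". The promoter or Cre that drives the fusion, the age and sex of the mice, and the number of mice behind each culture are not stated in the labels.

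ST-HSCs and MPP2 cells both descend from long-term stem cells. ST-HSCs can still give rise to all blood lineages for a limited time, while MPP2 cells are multipotent progenitors known for a lean toward megakaryocytes and red cells. MLL-ENL joins the front part of the histone methyltransferase MLL to ENL, a member of a complex that drives transcription elongation, and it is found in human leukaemia. SCF, IL-3, IL-6 and GM-CSF favour granulocytes, macrophages and mast cells, and the cultures held neither of the main hormones of platelet and red cell formation, thrombopoietin and erythropoietin, as far as the labels list the additions.

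The libraries held 12907412 to 14317891 recovered reads, and 1 read was worth 0.0695 to 0.0802 normalized counts. With 1 library per group, a difference between 2 libraries has no replicate check and no p-value. Its 95% interval covers counting error alone, not the variation between cultures. Xist, the RNA that coats the inactive X chromosome of females, stood at 0.359 normalized counts in the ST-HSC and 597 in the MPP2 colonies with 4OHT. The Y-linked gene Ddx3y had 44.6 and 0, and the ethanol libraries were split the same way. The ST-HSC libraries thus carry a male and the MPP2 libraries a female pattern, so cell type and the sex of the source mice cannot be told apart, and genes on X and Y were left out.

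The surface markers used to sort such cells served as a check of the labels. Slamf1, which encodes CD150, a marker carried by MPP2 cells and not by ST-HSCs in the usual sort, had 0 reads in the ST-HSC and 31 reads (2.49 normalized counts) in the MPP2 colonies with 4OHT, which is at least 11.5-fold higher. Cd48, another marker of MPP2 cells, stood at 11.1 and 11.9 (ratio 1.07, 95% counting interval 0.850 to 1.35), a difference within counting error after days of growth, and at 8.55 and 21.1 with ethanol (ratio 2.47). Kit, the receptor for SCF, stood at 92.9 and 90.5, a ratio of 0.974 (0.898 to 1.06). Ly6a, which encodes the stem cell marker Sca-1, was lower in the MPP2 library, at 61.4 and 32.01 (ratio 0.521, 0.461 to 0.587), but shares 31.9% of its sequence with another gene. Cd34, a surface protein of progenitors, stood at 27.02 and 20.9 with 4OHT (ratio 0.775, 0.659 to 0.910) and at 11.96 and 24.7 with ethanol, the opposite order. The lymphoid-progenitor receptor gene Flt3 was below the filter, with 0.862 and 0.241. Of the parent genes of the fusion, Kmt2a stood at 72.1 and 84.2 and Mllt1 at 62.7 and 59.05. A count per gene does not separate the fusion from its parents, so whether both cell types made the same amount of it was not measured.

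With 4OHT, 594 genes (5.4%) were at least 2-fold higher in the MPP2 colonies and 179 (1.63%) at least 2-fold lower, on log2 values with 0.5 added. The 4-fold mark was passed by 126 genes upward and 6 downward, and the 8-fold mark by 39 and 1. About as many genes lay above 0 (48.1%) as below, with a median of -0.02 and an SD of 0.60 over genes, and 5414 genes (49.2%) had a higher value less than 25% above the lower. The larger differences thus lay mostly on the MPP2 side. They included genes of megakaryocytes, mast cells and neutrophils, while the ST-HSC side included Ccr2 and Irf8, genes of monocyte and dendritic cell precursors. Monocyte genes as a list did not lie on that side, since 14 of 21 tested monocyte and macrophage genes were above 0. In bulk RNA, fewer cells of a type and less RNA per cell cannot be told apart, here or in any result that follows.

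In the ethanol pair, which shares no library with the 4OHT pair, the MPP2 colonies held 689 genes (6.27%) at 2-fold or more above the ST-HSC colonies and 93 (0.846%) at 2-fold or more below. Both pairs held 385 of the higher genes, which is 64.8% of those in the 4OHT pair and 55.9% of those in the ethanol pair. Of the lower genes both pairs held 35, which is 19.6% and 37.6%. The sign in ethanol was the same for 584 of the 594 higher and 162 of the 179 lower genes. Over all tested genes 45.8% lay above 0 in ethanol and 54.2% below. Across genes, which are not independent replicates, Pearson's r between the 2 differences was 0.77 and Spearman's rho 0.73. All 4 libraries share the split by sex, so the 2 pairs are not independent of it.

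**Figure D1:**
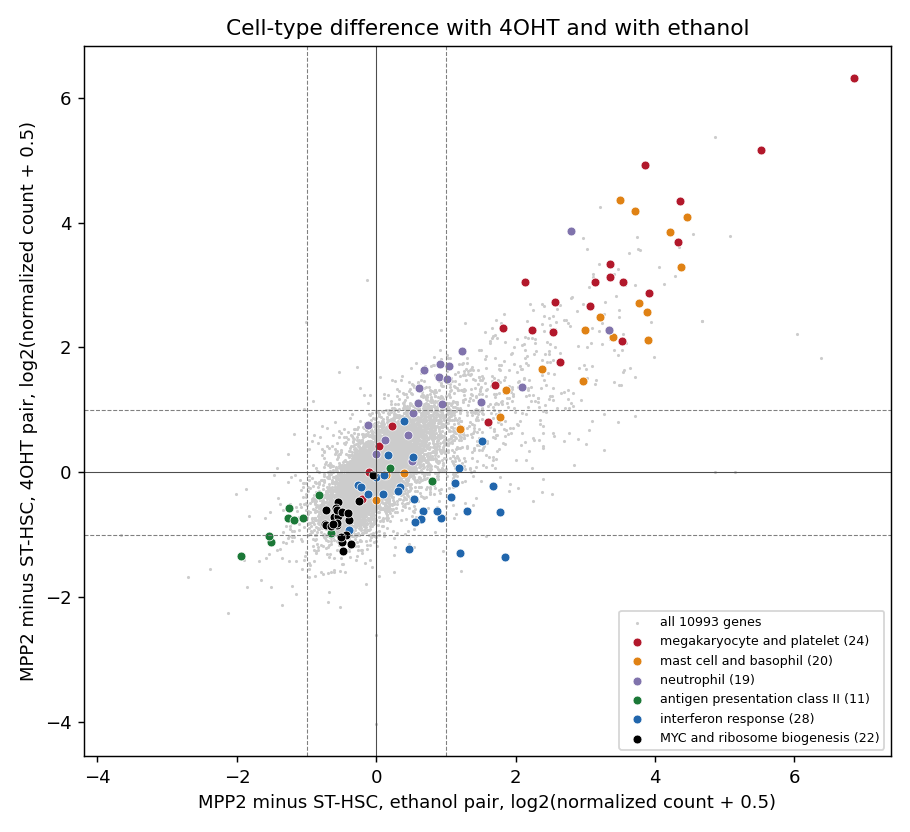
Each point is a gene, with its MPP2 minus ST-HSC difference in the ethanol pair (x axis) and in the 4OHT pair (y axis), both on the log2(normalized count + 0.5) scale, and dashed lines at 2-fold. Megakaryocyte and mast cell genes lie far up along the diagonal in both pairs, most class II genes lie at the lower left, and 23 of 28 interferon genes lie above 0 with ethanol but 23 of 28 below 0 with 4OHT.

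Genes of megakaryocytes and platelets were among those with the largest differences on the MPP2 side. Of the 24 tested genes of this list, 19 were at least 2-fold higher in MPP2 colonies with 4OHT and none was lower, with a median log2 difference of 2.70 (2.85 in the ethanol pair). With the 2 members that had 0 reads in the ST-HSC colonies with 4OHT set at their lower bound the median was 2.77. Ppbp, a chemokine precursor stored in platelet granules (chromosome 5, 90768518 to 90770063, GRCm38), had the largest difference of the 10993 genes on this scale. It stood at 0.647 normalized counts in the ST-HSC and 90.7 in the MPP2 colonies with 4OHT, and at 0.695 and 138 with ethanol. Both MPP2 libraries were thus high and both ST-HSC libraries near 0, and the ratio with 4OHT was 140.3 (95% counting interval 73.6 to 308). Its neighbour Pf4, platelet factor 4 (chromosome 5, 90772435 to 90773383), stood at 1.51 and 71.3 (ratio 47.3, 30.7 to 76.7).

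The receptors by which platelets adhere followed the granule genes. Itga2b, the integrin chain that marks the megakaryocyte lineage, stood at 4.17 and 94.03 (ratio 22.6, 17.3 to 29.9), and its partner Itgb3 at 43.2 and 215 (ratio 4.99, 4.56 to 5.46). Gp5, part of the receptor for von Willebrand factor, had 0.216 and 21.2, while its ligand gene Vwf had 18.2 and 154 (ratio 8.45, 7.41 to 9.68). Of these genes Gp5 and Vwf stood higher with 4OHT than with ethanol within the MPP2 colonies, where the ethanol values were 12.8 and 97.8. The collagen receptor gene Gp6 had 0 reads in both ST-HSC libraries and 2.81 normalized counts in the MPP2 colonies with 4OHT, at least 13.02-fold higher. Gp6 passed the filter through the MPP2 libraries alone, so its direction is built in.

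Not every gene of the list was apart. Fli1 and Nfe2, transcription factors of this lineage that other myeloid cells also use, stood at 247 and 248 and at 177 and 236. Mef2c was the single member below 0, at -0.44 on the log2 scale. Zfpm1, the cofactor FOG-1 that works with GATA1, is not in this list and was apart, at 2.30 and 17.3 (ratio 7.54, 5.18 to 11.3). Of the 24 genes 6 are held by another list as well, and Gp1bb shares 91.5% of its sequence with another gene, so its value (2.23 and 21.98) is uncertain.

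**Figure D2:**
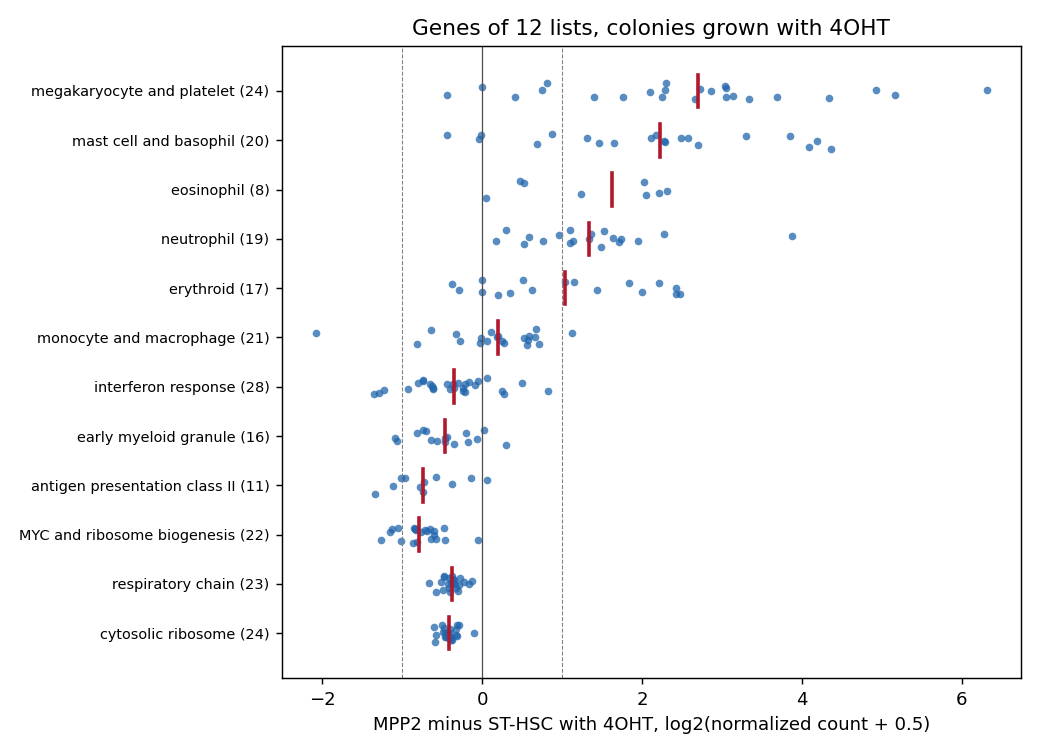
Each point is a gene's MPP2 minus ST-HSC difference with 4OHT on the log2(normalized count + 0.5) scale (x axis), grouped by list (y axis, number of tested genes in brackets), with the median as a vertical bar and dashed lines at 2-fold. The megakaryocyte and mast cell medians lie at 2.70 and 2.23, and all genes of the respiratory chain, cytosolic ribosome and ribosome biogenesis lists lie below 0.

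Mast cell and basophil genes were the next group. Of 20 tested genes, 15 were at least 2-fold higher in MPP2 colonies with 4OHT and none was lower, and the median log2 difference was 2.23 against 3.28 with ethanol. Prss34, a serine protease of basophils, stood at 4.17 and 95.2 normalized counts with 4OHT (ratio 22.8, 17.5 to 30.3). Mcpt8, a protease gene of basophils, and Cpa3, a carboxypeptidase gene of mast cells, stood at 21.6 and 123 and at 11.5 and 70.9. With ethanol the MPP2 colonies held more of both, 428 and 293. Fcer1a and Ms4a2, the alpha and beta chains of the high-affinity IgE receptor, stood at 0.503 and 17.7 (ratio 35.2, 16.8 to 88.7) and at 2.80 and 9.87 (ratio 3.52, 2.44 to 5.19). Il1rl1, the receptor for IL-33, had 5.46 and 38.3.

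Enzymes of mediator synthesis went with them. Hdc, which makes histamine, stood at 27.6 and 136 (ratio 4.93, 4.41 to 5.52) and Tph1, the first enzyme of serotonin synthesis, at 0.287 and 10.9 (ratio 37.96, 14.5 to 141). Gata2, a regulator that stem cells, mast cells and early megakaryocytes depend on, stood at 14.2 and 71.2 with 4OHT and at 25.3 and 206 with ethanol. Both MPP2 libraries were above both ST-HSC libraries, and the ratio with 4OHT was 5.00 (4.28 to 5.86). Mitf, a mast cell factor that macrophages also use, and Kit were level, with ratios of 0.987 (0.850 to 1.15) and 0.974. The chymase gene Cma1 had 0 reads in the ST-HSC and 55 in the MPP2 colonies, at least 20.5-fold higher.

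The motif AGATAAG, a sequence bound by GATA factors, was searched on both strands of the RefSeq promoter table (250 bases before to 50 after each gene start, GRCm38.p6). It was in 3.04% of all 32851 promoters. Counting a match in any promoter entry of a gene, it was in 2.25% of tested genes with an entry. By the same count it was in 2 of 23 mast cell and basophil genes and in 4 of 19 erythroid genes (1 of the 12 tested). In a search added after the data were seen, it was in 2 of 17 megakaryocyte genes. The windows of 3 genes named above are shown because they hold the motif, in capitals, on the gene's own strand. They lie at chr19:11623720-11623802 (minus strand), chr1:40429320-40429404 (plus strand) and chr7:4397837-4397933 (minus strand). CTTATCT is the same motif read on the other strand.
Ms4a2: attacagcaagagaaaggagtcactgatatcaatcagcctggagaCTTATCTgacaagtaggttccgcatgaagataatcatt
Il1rl1: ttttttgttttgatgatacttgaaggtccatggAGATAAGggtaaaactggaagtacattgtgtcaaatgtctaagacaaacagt
Gp6: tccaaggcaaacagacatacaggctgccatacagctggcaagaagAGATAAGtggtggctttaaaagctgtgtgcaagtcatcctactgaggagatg
The motif starts 38 bases before the start of Ms4a2, 217 before that of Il1rl1 and 144 before that of Gp6. A match describes the letters alone, and binding was not measured here.

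Eosinophil genes formed a smaller group, with 5 of 8 tested at least 2-fold higher and a median of 1.63, which was 0.85 with no filter and 0.51 with 5 added in place of 0.5. Epx, eosinophil peroxidase, stood at 8.05 and 42.1 (ratio 5.23, 4.26 to 6.48) and Prg2, the major basic protein, at 11.1 and 47.7 (ratio 4.29, 3.59 to 5.15). Siglecf, a surface receptor of eosinophils that macrophages can carry too, had 6.83 and 9.71.

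Neutrophil genes were also higher in MPP2 colonies. All 19 tested genes lay above 0 and 13 were at least 2-fold higher, with a median of 1.34 (0.90 with ethanol, where 7 were). Ltf, lactoferrin of the secondary granules, stood at 1432 normalized counts in the ST-HSC and 5521 in the MPP2 colonies with 4OHT, and at 1856 and 4355 with ethanol. The ratio with 4OHT was 3.86 (3.80 to 3.92). Other genes of the same granules followed, with Ngp at 3581 and 11717 (ratio 3.27), Camp at 240.4 and 748 (ratio 3.11) and Lcn2 at 742 and 2136 (ratio 2.88). Mmp9, gelatinase of the tertiary granules, had the largest difference of the list, with 1.94 and 35.2 (ratio 18.2, 12.3 to 27.9).

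Genes of the earliest neutrophil granules lay on the other side. Of 16 tested genes of early myeloid granules, 14 were below 0 with 4OHT and 2 at least 2-fold lower, with a median of -0.46 (-0.63 with ethanol). Mpo, myeloperoxidase, stood at 4357 in the ST-HSC and 2484 in the MPP2 colonies, 1.75-fold lower, and Ctsg, cathepsin G, at 917 and 438, 2.10-fold lower. Elane and Prtn3, the serine proteases stored with them, stood at 1272 and 861 and at 1604 and 989.5. The ethanol libraries had the same order for Mpo, 4549 and 1971. In both pairs the median of this list lay below 0 and that of the neutrophil list above 0. Srgn, Calr and 4 other genes of this list stand in another list as well.

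**Figure D3:**
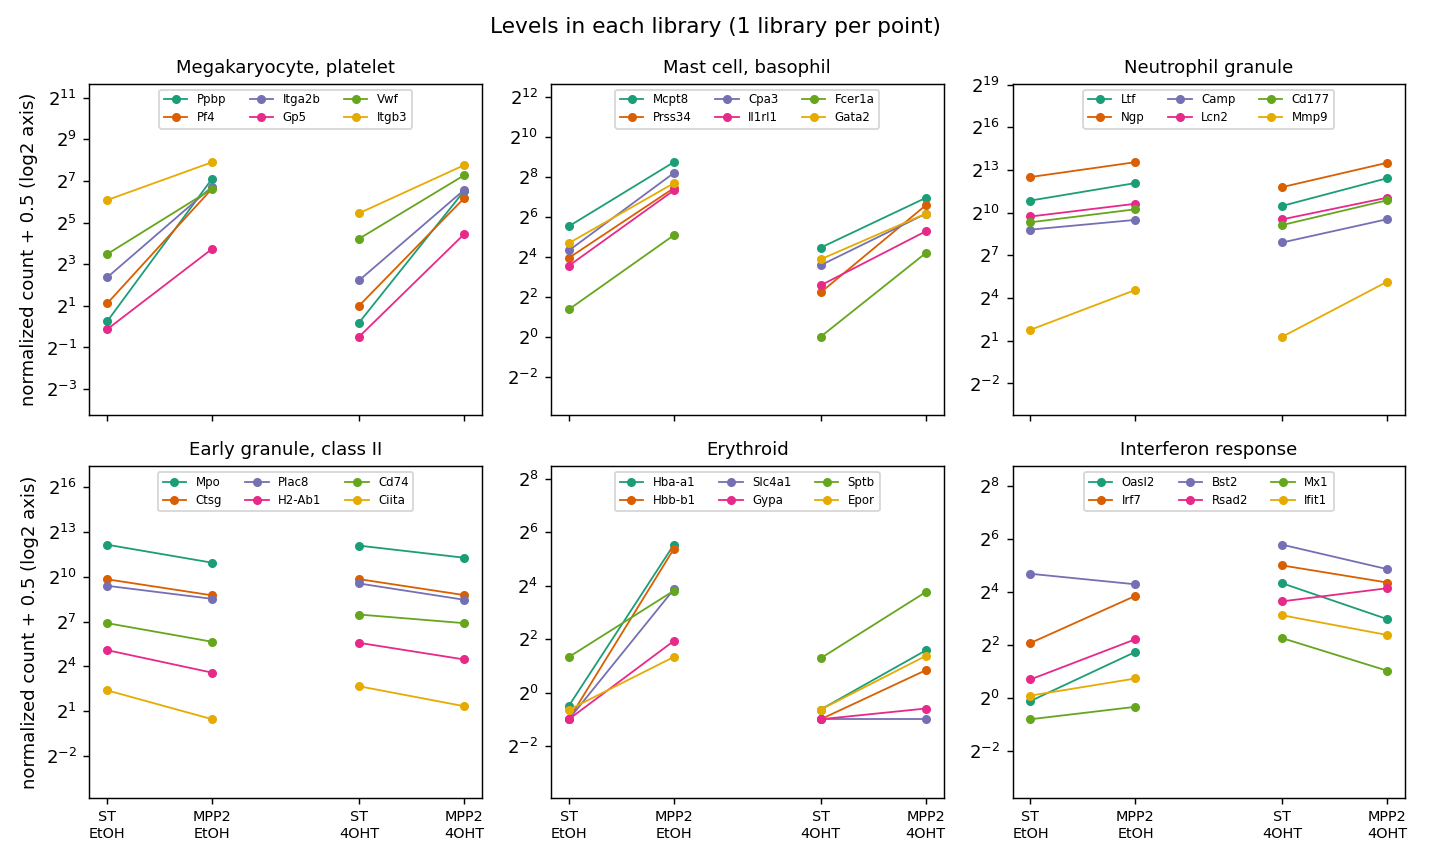
Each point is the normalized count plus 0.5 of a gene in 1 library on a log2 axis (y axis), with lines joining the ST-HSC to the MPP2 library of each treatment (x axis), in 6 panels by gene group. Lines of the megakaryocyte, mast cell and neutrophil panels run upward and those of the early granule and class II panel downward in both pairs, while the erythroid panel is steep with ethanol and the interferon panel runs mostly up with ethanol and down with 4OHT.

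Most red cell genes were higher in MPP2 colonies in both pairs, but their summed counts were higher there only with ethanol. The sums of the 17 tested genes were 613 in the ST-HSC and 508 in the MPP2 colonies with 4OHT. With ethanol they were 769 and 868. The median log2 difference of these genes was 1.03 with 4OHT and 2.77 with ethanol, and 9 and 15 of the 17 were at least 2-fold higher. Part of this gap is built in, since genes such as Slc4a1 and Hba-a1 passed the filter through the MPP2 library with ethanol alone. The 4OHT median was 0.45 with no filter and 0.19 among genes with a mean of at least 10. The globin gene Hba-a1 stood at 0.209 and 45.96 with ethanol and at 0.144 and 2.49 with 4OHT, so the MPP2 library with ethanol stood alone. Slc4a1, the anion exchanger of red cells, had 195 reads in that library and 0 in the other 3, which gives no fold change with 4OHT. Hba-a1 shares 75.5% of its sequence with another gene, and Hbb-b2 and Hbb-bt are listed with the same reads, so the globin values are uncertain and 1 value is counted under both names. Sptb (spectrin) and Epor (the erythropoietin receptor) did stand alike in both pairs. Sptb had 1.94 and 13.1 with 4OHT and 2.02 and 13.6 with ethanol, and Epor 0.144 and 2.09 with 4OHT and 0.139 and 2.02 with ethanol. Epor passed the filter through its MPP2 values alone, so its direction is built in. Hba-a2 and Slc4a1 had 0 reads in both 4OHT libraries, where 3 reads, the most that a count of 0 allows, are worth 0.216 and 0.241 normalized counts.

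Of 20 tested genes of stem and multipotent cells, 7 were at least 2-fold higher and 1 lower, with a median of 0.29, which was -0.04 among genes with a mean of at least 10. Among the higher ones were Slamf1, Gata2, Myct1 and Esam, and 8 of the 20 stand in another list. Myct1 and Esam, which endothelial cells also express, had 1 read each in the ST-HSC library and 2.97 and 2.57 normalized counts in the MPP2 library. The ST-HSC library with 4OHT thus added next to nothing to the means on which Slamf1, Myct1 and Esam passed the filter. The single lower gene was Hoxa9, a homeobox gene that MLL fusions are known to sustain. It stood at 3.52 and 1.12 with 4OHT (3.14-fold lower) and at 0.904 and 0.361 with ethanol, so the ST-HSC library was the higher one of each pair. The ethanol values of Hoxa9 rest on few reads, since 1 read was worth 0.0695 and 0.0722 there, so that order is uncertain. Meis1, its usual partner, stood at 3.95 and 5.70 with 4OHT, and at 1.46 and 8.08 with ethanol. Over the 16 tested MLL fusion targets the median was -0.21, with 6 above 0 and 10 below. Myb stood at 188 and 104 and Myc at 174 and 106. Cpeb2 was the highest, at 27.5 and 55.4, a log2 difference of 0.995. With ethanol the median of this list was 0.09, with 9 above 0, 7 below and 3 at least 2-fold higher. Among 21 genes of the MLL and elongation complexes none passed 2-fold in either direction, and the median was 0.03, or -0.05 when scaled to the total reads without the ribosomal precursor Rn45s.

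On the ST-HSC side were, among others, Ccr2, Irf8, Ms4a6c, Vcan, Tifab, S1pr3, B3gnt5 and Cdk5rap1. Ccr2, the chemokine receptor by which monocytes leave the marrow (chromosome 9, 124101950 to 124113557), stood at 53.5 in the ST-HSC and 12.3 in the MPP2 colonies with 4OHT, and at 34.4 and 21.1 with ethanol. The MPP2 library with 4OHT was the lowest of the 4, 4.36-fold below its partner (ratio 0.230, 0.192 to 0.274). Irf8, the transcription factor that directs progenitors to monocytes and dendritic cells, stood at 42.1 and 15.3 (2.75-fold lower), with 25.7 and 7.65 in ethanol. Ms4a6c had 17.4 and 3.61, but shares 58.1% of its sequence with another gene. Vcan, the proteoglycan versican of monocytes and matrix, stood at 255 and 86.9 (2.94-fold lower). Tifab, an adaptor of innate signalling, and S1pr3, a receptor for sphingosine 1-phosphate, were 3.24-fold and 3.67-fold lower. B3gnt5 (12.9 and 3.85) and Cdk5rap1 (12.1 and 3.61), which are in none of the gene lists, were 3.36-fold and 3.34-fold lower.

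Antigen presentation genes of MHC class II were mostly on the ST-HSC side. Of 11 tested genes, 10 were below 0 and 3 at least 2-fold lower, with a median of -0.73 (-1.18 and 7 with ethanol). Ciita, which switches class II genes on, stood at 5.82 and 2.01 (2.90-fold lower), H2-Ab1 at 47.1 and 21.5 (2.19-fold lower) and the invariant chain Cd74 at 177 and 118. Itgax, the CD11c chain of dendritic cells and macrophages, was level at 32.1 and 33.7. Genes of mature macrophages did not go with them. Of 21 tested monocyte and macrophage genes 1 was higher (Itgam, which shares 68.3% of its sequence with another gene) and 1 lower (Ccr2) at 2-fold, with a median of 0.19. With ethanol 4 were higher and none lower, with a median of 0.60. Csf1r stood at 129.6 and 128, Mrc1 at 83.3 and 99.2, and Lyz2 at 1924 and 2768.

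Genes of growth and ribosome assembly were lower in MPP2 colonies. All 22 tested genes of the MYC and ribosome biogenesis list lay below 0, 5 at least 2-fold, with a median of -0.78 (-0.55 with ethanol, where none passed 2-fold). Npm1, nucleophosmin, stood at 750.3 and 344 with 4OHT (ratio 0.458, 0.442 to 0.475) and at 732 and 522 with ethanol. Nop58, a core protein of the particles that modify ribosomal RNA, stood at 77.5 and 32.1 (2.41-fold lower) and nucleolin, Ncl, at 602 and 299 (2.01-fold lower). The MPP2 library with 4OHT was the lowest of the 4 for Npm1, Nop58 and Ncl. Odc1, the first enzyme of polyamine synthesis, had 318 and 178.

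The same direction held for 3 other growth lists, none of whose members passed 2-fold with 4OHT. All 24 cytosolic ribosome genes and all 23 respiratory chain genes lay below 0, with medians of -0.41 and -0.37, and 22 of 25 DNA replication genes did, with a median of -0.23. Of the ribosome genes 16 share over 20% of their sequence with another gene, so their values are uncertain. Among 24 mitosis genes 16 lay below 0 with a median of -0.10. Of 20 heat shock and unfolded protein genes 14 lay below 0 (median -0.43), while Hspa2 was at least 2-fold higher, with 15.2 and 47.6. Over all tested genes the median was -0.02, and over 14 housekeeping genes it was -0.16. The E-box letters CACGTG, bound by MYC among others, were searched on both strands after the data were seen. Counting a match in any promoter entry of a gene, they were in 6 of 18 genes of the MYC and ribosome biogenesis list. By the same count they were in 12.03% of tested genes with an entry. Counted per promoter, they were in 7.15% of all promoters.

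**Figure D4:**
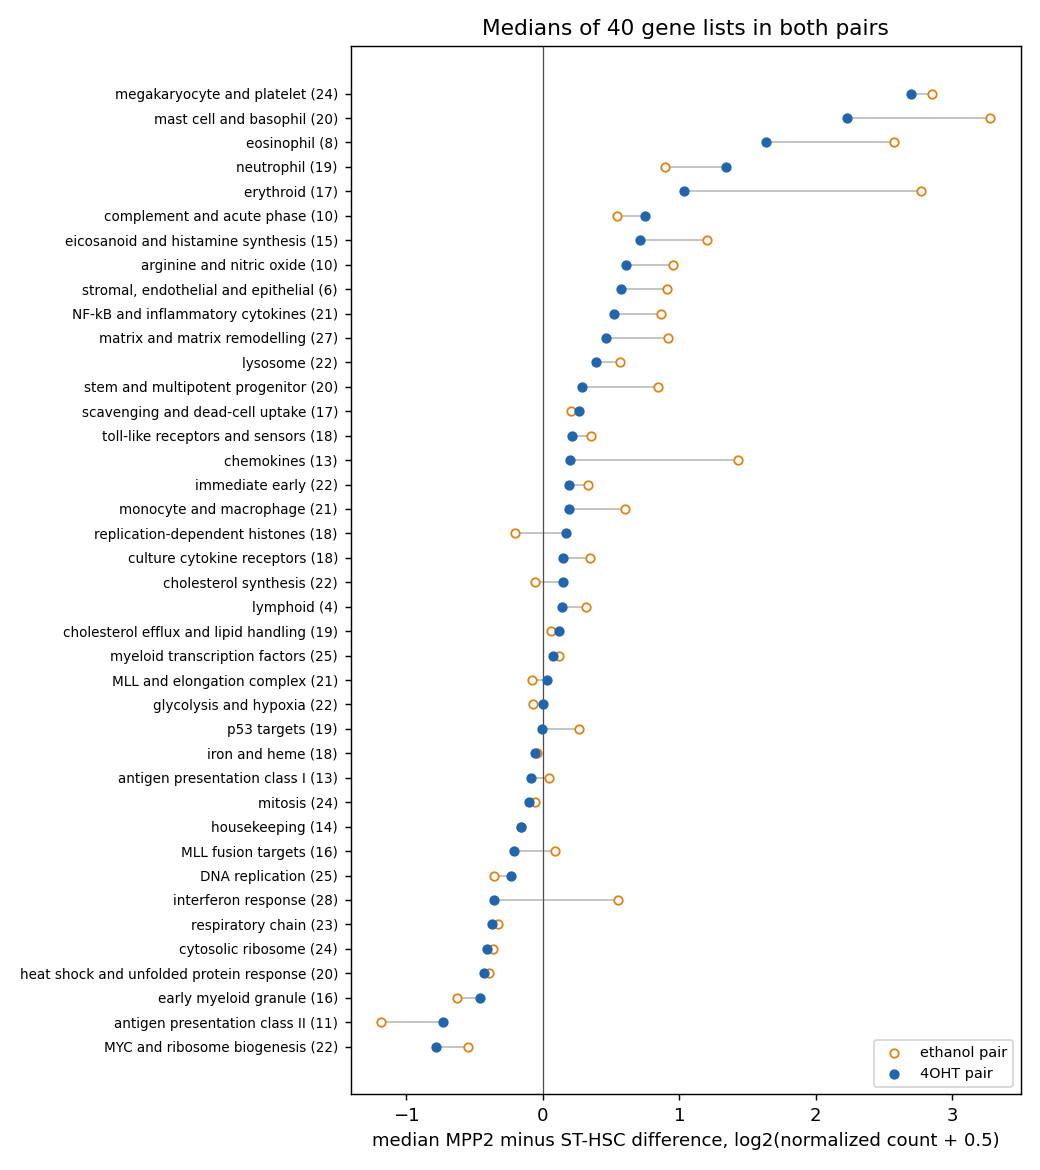
For each of 40 gene lists (y axis, number of tested genes in brackets) the filled point is the median MPP2 minus ST-HSC difference with 4OHT and the open point that with ethanol, on the log2(normalized count + 0.5) scale (x axis). The interferon list is at -0.36 with 4OHT and 0.55 with ethanol, and the erythroid and chemokine lists lie well left of their ethanol medians.

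Interferon response genes stood lower in the MPP2 than in the ST-HSC colonies with 4OHT, and higher in them with ethanol. With 4OHT 23 of 28 tested genes lay below 0 and 3 were at least 2-fold lower, with a median of -0.36. In the ethanol pair 23 lay above 0 and 9 were at least 2-fold higher, with a median of 0.55. Oasl2, an oligoadenylate synthetase-like antiviral gene, stood at 19.4 in the ST-HSC and 7.30 in the MPP2 colonies with 4OHT (ratio 0.376, 0.293 to 0.479). With ethanol it stood at 0.417 and 2.81, from 6 and 39 reads (ratio 6.74, 2.84 to 19.5). Both 4OHT libraries were above both ethanol libraries, and the order of the cell types was reversed. Irf7, the factor that amplifies interferon genes, stood at 31.3 and 19.8 with 4OHT and 3.69 and 13.9 with ethanol. Mx1, a GTPase that blocks viruses, had 4.24 and 1.52 with 4OHT and 0.0695 and 0.289 with ethanol. In the ethanol libraries 1 read was worth 0.0695 and 0.0722, so the ethanol order of Mx1 rests on a few reads and is uncertain. Bst2 (tetherin) did not reverse: it had 54.1 and 28.3 with 4OHT and 25.03 and 18.9 with ethanol, lower in MPP2 colonies in both pairs.

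Other members were level or higher in MPP2 colonies. Rsad2 (viperin) stood at 11.9 and 17.01 (ratio 1.43, 1.16 to 1.76), Stat2 at 17.7 and 31.6 and Oas3 at 44.6 and 46.6. Summed over the 28 genes, the list held 693 normalized counts in the ST-HSC and 609.9 in the MPP2 colonies with 4OHT, and 317 and 386 with ethanol. By limma 0 of the 28 genes passed an adjusted p under 0.05 for a cell-type difference shared by both treatments (4 at an unadjusted p under 0.05), by edgeR 4 and by DESeq2 0, and the reversal itself was not tested, since each cell type has 1 library per treatment. Of the 28 genes 4 share over 20% of their sequence with another gene.

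The core of the interferon-stimulated response element, written GAAANNGAAA and searched on both strands, was in 13 of 20 interferon genes with a promoter entry. It was in 3.83% of tested genes with an entry, and, counted per promoter, in 3.44% of all promoters. The windows of 5 of them are shown because they hold it and differ in their 4OHT difference, with the motif in capitals and TTTCNNTTTC as the same motif on the other strand. Overlapping matches run together, as in Isg15 and Bst2. The positions are chr4:156200842-156200941 (minus strand), chr8:71537548-71537647 (minus), chr19:34640740-34640839 (plus), chr12:26456518-26456617 (minus) and chr10:128270248-128270330 (plus).
Isg15: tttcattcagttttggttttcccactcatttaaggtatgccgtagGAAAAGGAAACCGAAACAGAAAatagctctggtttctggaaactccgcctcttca
Bst2: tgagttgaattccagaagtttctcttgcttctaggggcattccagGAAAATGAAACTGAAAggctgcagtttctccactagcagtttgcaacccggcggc
Ifit1: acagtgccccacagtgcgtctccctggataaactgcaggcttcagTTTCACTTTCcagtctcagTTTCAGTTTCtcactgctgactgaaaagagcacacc
Rsad2: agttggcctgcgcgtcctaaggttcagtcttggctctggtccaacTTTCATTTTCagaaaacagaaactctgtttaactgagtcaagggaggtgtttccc
Stat2: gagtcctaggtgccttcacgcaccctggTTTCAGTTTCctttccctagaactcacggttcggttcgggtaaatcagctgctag
The log2 differences with 4OHT of these genes were -0.62, -0.92, -0.74, 0.49 and 0.82 in that order. Since the genes were chosen to differ, these signs say nothing about genes with the motif as a set.

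Secreted and inflammatory genes were mixed. Of 13 chemokine genes 3 were at least 2-fold higher with 4OHT (median 0.20) and 10 with ethanol (median 1.43). The 3 were Ppbp, Pf4 and Ccl6, a myeloid chemokine at 557 and 1644. Of 21 NF-kB and inflammatory cytokine genes 5 were at least 2-fold higher and 1 lower in MPP2 colonies with 4OHT, with a median of 0.52 (0.87 with ethanol). Il1rn, the IL-1 receptor antagonist, stood at 89.2 and 227 (ratio 2.55, 2.38 to 2.72) and Csf1 at 37.4 and 80.3. Il6 stood at 1.65 and 7.22 with 4OHT, and at 3.13 and 56.9 with ethanol, where the MPP2 library was far above the other 3. Ptgs2, the inducible cyclooxygenase, was the lower one, at 7.55 and 3.45 with 4OHT but 8.14 and 25.1 with ethanol. Lipid mediator enzymes were mostly on the MPP2 side, with Alox12 of platelets at 0.287 and 9.07 (ratio 31.5, 11.98 to 118) and Alox5 at 209 and 451.

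Matrix genes were again higher in MPP2 colonies, with 7 of 27 at least 2-fold higher and 1 lower and a median of 0.46. Timp3, an inhibitor of matrix proteases (chromosome 10, 86300372 to 86349506), had 0 reads in the ST-HSC and 253 in the MPP2 colonies with 4OHT (20.3 normalized counts), at least 94.1-fold higher. It had 0.417 and 26.2 with ethanol. Col18a1, a basement membrane collagen, stood at 1.44 and 26.8 (ratio 18.6, 11.9 to 30.9), and Lama5, a laminin chain, at 5.68 and 36.9. Of 6 tested stromal, endothelial and epithelial markers 5 lay above 0, with a median of 0.57 (0.91 with ethanol), and 1, Col1a1, was at least 2-fold higher, at 1.72 and 6.82. The endothelial marker Cdh5, below the filter, had 0.0719 and 0.160, near 0. The part of such cells in the matrix values was not tested. Lysosome genes were slightly higher (21 of 22 above 0, median 0.39), led by Gpnmb at 293 and 731.

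Some genes were apart with 4OHT alone, with less than 25% between the cell types in ethanol. They numbered 22 (3.70%) of the 594 higher and 45 (25.1%) of the 179 lower genes, while 57.9% of all tested genes lay that close in ethanol. Aldh3b1, an aldehyde dehydrogenase, stood at 67.4 and 84.1 with ethanol, and at 54.4 and 116 with 4OHT (ratio 2.14, 1.96 to 2.34). It was lowest in the ST-HSC and highest in the MPP2 library with 4OHT. Eno1b had the largest such difference (43.9 and 374), but shares 89.2% of its sequence with another gene, chiefly Eno1, so its value is uncertain.

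In the other direction Akr1b3, an aldose reductase, stood at 53.6 and 50.6 with ethanol and 77.5 and 34.1 with 4OHT (2.27-fold lower). St8sia4, which adds polysialic acid to surface proteins, stood at 34.1 and 27.8, and then at 45.4 and 16.8 (2.71-fold lower). The orphan receptor gene Gpr171 was 2.93-fold lower and the chromatin protein gene Hmgn1 2.29-fold lower. For these 4 genes the ST-HSC library with 4OHT was the highest and the MPP2 library with 4OHT the lowest of the 4. With 1 library per group the difference between the pairs was not tested.

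A cell-type difference shared by both treatments was fitted by limma with cell type and treatment as terms, which leaves 1 residual degree of freedom over the 4 libraries. It is a different quantity from the 4OHT difference. At an adjusted p under 0.05, 1062 genes (9.66%) were higher and 554 (5.04%) lower in MPP2 colonies. Of the genes at least 2-fold apart with 4OHT it called 529 of the 594 higher and 93 of the 179 lower. The fit includes the 2 libraries with 4OHT that selected these genes, so part of this overlap is built in. It called higher 20 of the 24 megakaryocyte, 17 of the 20 mast cell and basophil, 14 of the 19 neutrophil and 8 of the 17 erythroid genes. It called lower 8 of the 11 class II, 6 of the 16 early granule and 12 of the 22 MYC and ribosome biogenesis genes. The adjusted p of limma was 0.0017 for Itga2b, 0.0086 for Irf8 and 0.056 for Ccr2. The number called ranged from 533 to 3576 over other settings. The p-values rest on how far the cell-type difference differed between the 2 treatments, with a spread shared over genes. No group has a replicate culture, so they do not measure the variation between cultures.

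The size of the differences varied with level, base composition and length. Of genes with a mean of 1 to 3 normalized counts 13.4% were at least 2-fold higher, against 3.25% at 100 or more. The median 4OHT difference went from -0.15 in the 20% of genes with the lowest GC content to 0.09 in the highest, while in ethanol it went from -0.0011 to -0.079. From the 20% of genes with the shortest to the 20% with the longest transcripts it went from -0.16 to 0.08 with 4OHT, and from -0.16 to 0.05 with ethanol. The list medians were taken again with the GC trend removed in 20 bins, over the 10601 genes with a GC value. They became 2.66 for megakaryocyte, 1.33 for neutrophil, -0.71 for class II, -0.76 for MYC and ribosome biogenesis and -0.40 for interferon genes. That of monocyte and macrophage genes became 0.33. The red cell median became 0.58. List members with no GC value were left out here, and the cause was not tested.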

How the data were processed

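RNA-seq was compared between 1 MPP2 and 1 ST-HSC library from cultures with 4OHT, beside 1 of each with ethanol. Per the labels' protocols, total RNA of colony cells was depleted of rRNA and made into strand-specific libraries from 200 ng. The submitters' processing notes name the build mm10 and the tools edgeR, RSEM, Bowtie2 and Trimmomatic 0.36, with no role, order or annotation. The deposited signal is a normalized count per gene symbol. Each value was within 1e-06 of a whole multiple of the value of 1 read (100% of values), so whole reads were recovered, and the scaling equals the TMM scaling of edgeR.

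Differences were taken on log2(normalized count + 0.5), which understates those of low genes, over autosomal genes with a mean of at least 1. As with Gp6 and Epor, a gene near 0 in both ST-HSC libraries passes this filter through its MPP2 values alone. Its direction is then built in. Ratios are of the normalized counts. Intervals are exact conditional binomial (Clopper-Pearson) 95% intervals on recovered reads, and 0 reads were bounded at 3. The shared difference was fitted with limma 3.58.1 in R 4.3.3, with Benjamini-Hochberg adjustment, and with edgeR 4.0.16 and DESeq2 1.42.0 as alternatives on recovered reads. The limma and edgeR fits were also run on simulated reads with known changes. The spread in that simulation was assumed, not measured between cultures. Coordinates, GC content and sequence shared with other genes (31-base words of transcripts) come from GENCODE M21 (GRCm38, which is the assembly called mm10), and promoters from RefSeq.

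The members, gene lists and tests were chosen with earlier results of these data known. Genes were named by rule: 12 per direction with the largest 4OHT difference and at least 10 normalized counts in the higher 4OHT library, 8 per direction in both pairs, 6 per direction with 4OHT alone (within 1.25-fold in ethanol), 3 per list by level and 3 by difference, and sorting markers and fusion parents. Not all genes picked by these rules are given in the text, and some further genes were named after their values were seen.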

Additional observations from a re-analysis of the deposited data

Results flagged for a closer look

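In 6 genes the cell types stood at least 2-fold apart in opposite directions in the 4OHT and the ethanol pair. None of these reversals was tested, since each cell type has 1 library per treatment. Oasl2, Oas1g and Ifi204, which are genes of the interferon response, were lower in MPP2 colonies with 4OHT and higher with ethanol. Their log2 differences with 4OHT were -1.35, -1.59 and -1.29, and with ethanol 1.85, 1.21 and 1.21. In the ST-HSC library with ethanol they had 6, 8 and 13 reads in that order. Ptgs2 had -1.03 and 1.57. In the other direction Vill, a villin-like gene, had 1.01 and -1.04, and the histone gene Hist2h2aa2 had 2.41 and -1.01, from 0 to 27 reads a library. Hist2h2aa2 shares 100% of its sequence with another gene, Oas1g 55.1% and Ifi204 34.6%, so these values are uncertain.

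The sex-linked genes lie outside the genes compared. Xist stood at 597 normalized counts in the MPP2 library with 4OHT against 0.359 in the ST-HSC library, and Ddx3y at 44.6 in the ST-HSC library with 4OHT against 0 reads in the MPP2 library.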

How the results depend on the processing

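With 1 library per group no library could be left out, and no direction has a replicate behind it. Cultures could not be paired by replicate, because the replicate number 1 of each group is the only one. The shared fit, with treatment as a term, is a comparison within the 2 treatments. The counts of genes at least 2-fold apart rested on the added constant, the filter and the fold. The number higher with 4OHT was 233 with a constant of 5, 361 and 284 with a mean of at least 5 and 10, 1497 at 1.5-fold and 126 at 4-fold. The number lower was 35, 104, 68, 1178 and 6 under the same settings, and the number the same way in both pairs 150, 239, 187, 1268 and 109. A larger constant shrinks low genes by construction: with 5 the mast cell and basophil median was 1.16, the megakaryocyte median 1.251 and the red cell median 0.19, while with 0.1 the megakaryocyte median was 3.16. Scaling to total reads without Rn45s moved the median of all genes from -0.02 to -0.10, with 508 genes higher and 247 lower. The genes called by the shared fit numbered 3576 with a mean-variance trend in limma, 3504 with edgeR, 533 with no filter and 2603 with a mean of at least 5, and the cause was not tested. Genes with a low mean were the most often at least 2-fold apart and have the widest counting intervals.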

Other observations

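Receptors and mediators of the cytokines in the medium were mostly level between the 2 kinds of colony with 4OHT, with a median log2 difference of 0.14 over 18 genes. Il6st, the signalling chain of the IL-6 receptor, was lower in MPP2 colonies, at 50.2 in the ST-HSC and 22.8 in the MPP2 library, and at 30.8 and 11.8 with ethanol. Il3ra and Csf2rb2, chains of the IL-3 receptor, were higher, at 5.75 and 12.7 and at 157 and 324, though Csf2rb2 shares 30.1% of its sequence with another gene. Arg2, a mitochondrial arginase, stood at 6.11 and 21.3, while Dusp2, a phosphatase that switches MAP kinases off, stood at 19.9 and 7.14, 2.79-fold lower. Among 22 genes of cholesterol synthesis none passed 2-fold, with 19 above 0 and a median of 0.14. Of 19 p53 target genes 1 did, Perp, at 4.74 and 19.8.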
